A study of Hordeum vulgare with 12 samples.

Results

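The comparison described here set small RNAs from the shoots of barley given nitrogen excess against those from control shoots. All 6 libraries of the series that carry a shoot label were used, out of 12 libraries in all, and every one of the 3258 sequences listed in the shoot table was read. Of these, 450 had a count in any shoot library, and 148 passed the filter on low counts and were tested. The plants were spring barley (Hordeum vulgare), all of the unmodified cultivar Golden Promise. Seedlings were grown 2 to a pot in perlite under a 16 h day and collected at 2 weeks of age as biological replicates. Control shoots (3 libraries) had received medium with 28 mM NH4NO3. Nitrogen-excess shoots (3 libraries) had received 280 mM NH4NO3 in a medium that was otherwise the same, so both groups shared 8 µM CuSO4, 20 mM KH2PO4 and 4 mM K2SO4. The labels name no allele or other agent.

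MicroRNAs are short RNAs cut from a hairpin precursor, one strand from its 5p arm and the other from its 3p arm. One strand is usually kept in an ARGONAUTE protein, where it pairs along most of its length with target messenger RNAs and leads to their cleavage or repressed translation. In plants, many conserved families act on transcription factors and hormone receptors that set leaf form, root growth and flowering, and a smaller group acts on nutrient transporters and responds to supplies of phosphate, sulfate, copper or nitrogen. Levels below are counts per 1000000 listed counts after TMM scaling between libraries (CPM). Changes are log2 fold changes of nitrogen excess over control ± standard error, from edgeR's quasi-likelihood test with Benjamini-Hochberg adjustment over all sequences tested, and a change was called at an adjusted p below 0.05.

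Totals over listed sequences ran from 1215590 to 1303233 counts in control shoot and were 2246495, 779326 and 245176 in nitrogen-excess shoot, so the library labelled nitrogen-excess shoot 3 had the least depth. It also went against its tissue label. Of 6 root-high sequences, chosen from replicates 1 and 2 of the 4 groups, all 6 lay nearer to root than to shoot in it, and so did 21 of 27 shoot-high sequences. The summed root-high level was 1980 to 7355 counts per 1000000 in the other 5 shoot libraries and 31981 in the library labelled nitrogen-excess shoot 3. The summed shoot-high level was 63056 to 134207 in the others and 24680 in that library, and no marker was at 0 in any shoot library. In the library labelled control root 3, which is not used below, the sequences lay the other way, with all 6 root-high and 26 of 27 shoot-high sequences nearer to shoot. Whether the labels of these 2 libraries were exchanged cannot be told from the sources used here, and if they were, every value over 6 libraries includes a library of another tissue and treatment. Samples were kept in their labelled groups, and the fold changes of most named sequences are given with and without the library labelled nitrogen-excess 3. The library names also fall into 2 naming series, one with replicate 1 of each group and one with replicates 2 and 3 of the shoots, and the sources used here do not say what sets the series apart.

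**Figure D1:**
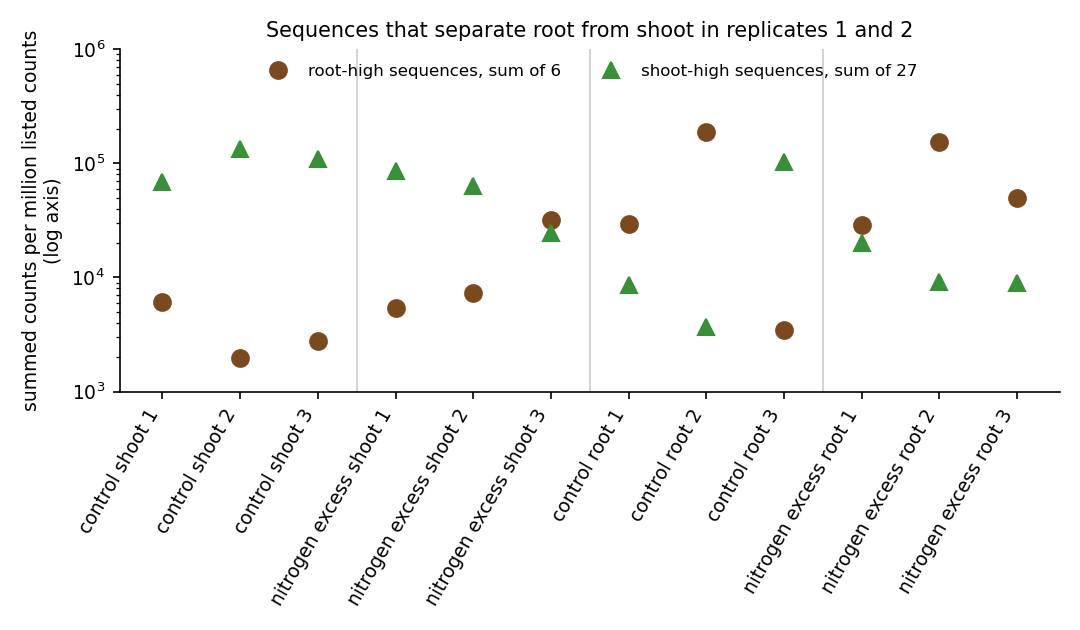
Summed counts per 1000000 listed counts (log axis) of 6 root-high and 27 shoot-high sequences in each of the 12 libraries, 1 point per library and marker set. The library labelled nitrogen-excess 3 has 31981 for the root-high and 24680 for the shoot-high set, and the library labelled control root 3 sits with the shoots.

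The sequences on which the results turn are printed below 5′ to 3′ as listed in the deposited table, with T for U. Capitals mark the seed (bases 2 to 8), the stretch that tends to tolerate the fewest mismatches to a target. The names are those of the plant in which each sequence was catalogued (ata, Aegilops tauschii; bdi, Brachypodium distachyon; cme, melon; gma, soybean; hvu, barley; osa, rice; ppt, the moss Physcomitrium; tae, wheat; ath, Arabidopsis).
In the auxin and tasiRNA group these sequences stood lower or, for ata-miR167f-5p, lower in all but 1 library, and the pair of miR167 sequences share a seed.
ata-miR390-5p: aAGCTCAGgagggatagcgcc
bdi-miR160e-5p: tGCCTGGCtccctgaatgcca
ata-miR167d-5p: tGAAGCTGccagcatgatctga
ata-miR167f-5p: tGAAGCTGccagcatgatctgc
gma-miR393k: tTCCAAAGggatcgcattgatc
osa-miR393b-5p: tCCAAAGGgatcgcattgatct
Of the phase change and flowering group, ata-miR172b-3p and ata-miR5200-5p were, with gma-miR393k, the 3 sequences called lower in 1 of the fits described below.
ata-miR172b-3p: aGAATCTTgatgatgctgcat
osa-miR156l-5p: cGACAGAAgagagtgagcata
ata-miR5200-5p: aAGCCTTAgtgaatatctaca
The nutrient sequences with positive changes held 2 shared seeds, one in miR395 and the other in miR399, and osa-miR444b.1 is shown beside them for its known link to nitrate.
cme-miR395f: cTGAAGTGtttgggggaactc
tae-miR395a: gTGAAGTGtttgggggaactc
gma-miR395h: aTGAAGTGtttgggagaactc
osa-miR399d: tGCCAAAGgagagttgccctg
ata-miR399b-3p: tGCCAAAGgagaattgccctg
ata-miR169i-3p: gGCAGTCTccttggctagc
osa-miR444b.1: tGTTGTCTcaagcttgctgcc
Leaf growth and patterning sequences, the first 3 of them high in the library labelled nitrogen-excess 3, were these.
ppt-miR319c: cTTGGACTgaagggagctccc
tae-miR319: tTGGACTGaagggagctccct
ata-miR171a-3p: tGAGCCGAaccaatatcactc
ata-miR396c-5p: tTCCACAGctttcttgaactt
bdi-miR164a-3p: cATGTGCCcttcttctccacc
Sequences catalogued as miRNAs that resemble tRNA ends were high in the same library.
bdi-miR5054: tCCCCACGgtcggcgcca
ath-miR8175: gATCCCCGgcaacggcgcca
gma-miR6300: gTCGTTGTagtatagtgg

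Tested one by one, 0 of 148 sequences (0.0%) were called over the 6 libraries by edgeR, while 15 had an unadjusted p below 0.05, 2 of them lower under nitrogen excess, and DESeq2 called 8, all higher. Groups did not overlap for 12 sequences that were higher (8.11%) and 8 that were lower (5.41%). With the library labelled nitrogen-excess 3 left out, 0 of 154 were called (12 with an unadjusted p below 0.05), and the groups did not overlap for 16 of the 148 that were higher (10.8%) and 19 that were lower (12.8%). When that library was left out and the naming series entered as a term, 10 of 154 sequences were called higher (6.49%) and 3 lower (1.95%). Of the 10, 6 belong to copper families, and the others were cme-miR395f, tae-miR395a, osa-miR399d and ata-miR169i-3p. The 6, and the 12 that were higher without overlap, include ata-miR528-3p and OLAs_528. These are the same stretch shifted by a base and can share molecules. This 5-library fit was chosen after the data were seen and has 2 residual degrees of freedom, so its estimate of spread rests largely on values pooled over sequences. The median sequence stood at -0.07 over 6 libraries and at -0.26 in this fit. With library totals alone as the scaling, 9 sequences were higher and 8 lower without overlap, and 8 and 5 of these were the same sequences, so that 7 overlapped there, which were ata-miR172b-3p, ata-miR396c-5p, osa-miR156l-5p, osa-miR399d, ata-miR160c-3p, ata-miR169a-3p and the copper sequence bdi-miR397b-5p.

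Among the miRNAs of auxin signalling and the tasiRNA pathway, ata-miR390-5p, bdi-miR160e-5p and ata-miR167d-5p held lower levels in every nitrogen-excess library than in any control. miR390 directs cleavage of the TAS3 transcripts, from which small RNAs against auxin response factors (ARFs) are made. ata-miR390-5p was at 799.8, 779 and 769 CPM in the controls and 243, 328 and 230.1 CPM under nitrogen excess. The controls lay close together and all 3 nitrogen-excess libraries were below them, the one labelled 3 included. However, ata-miR390-5p is one of the shoot-high sequences, and in the library labelled 3 it lay nearer to root. Its log2 fold change was -1.55 ± 0.81 (adjusted p = 0.443) and -1.45 ± 0.64 without that library (adjusted p = 0.555), so it was not called. Within the first naming series, with 1 library a group, its log2 ratio was -1.72, and within the second its log2 fold change was -1.20. Here and below, changes within the second series come from a separate fit on its shoot libraries, the one labelled nitrogen-excess 3 included. The median sequence of that fit stood at 0.44, so these changes and the ratios of the first series are on unlike scales.

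miR160 acts on ARF10, ARF16 and ARF17 class factors and miR167 on the ARF6 and ARF8 class. For bdi-miR160e-5p the controls held 218, 145 and 131 CPM and the nitrogen-excess libraries 100.2, 82.4 and 10.7 CPM. The lowest value, in the library labelled nitrogen-excess 3, rested on 2 counts, and bdi-miR160e-5p is one of the shoot-high sequences. Its log2 fold change was -1.31 ± 0.85 (adjusted p = 0.562) with that library and -0.84 ± 0.62 without it. The opposite arm differed in sign: ata-miR160c-3p was at 23.3, 23.6 and 39.1 CPM in control and 42.8, 50.7 and 107 CPM under nitrogen excess, again with no overlap. Its log2 fold change was 1.18 ± 0.78, and 0.71 without the library labelled nitrogen-excess 3, which was the highest.
The miR167 sequences were far more abundant. For ata-miR167d-5p the log2 fold change was -0.91, and -0.81 without the library labelled nitrogen-excess 3. Levels of ata-miR167f-5p were 9862, 11658 and 9314 CPM in control and 6342, 6464 and 15393 CPM under nitrogen excess. Its groups overlapped through the library labelled 3 alone, although it counts among the shoot-high sequences, and without that library its log2 fold change moved from -0.13 to -0.68. With that library left out, 8 of 9 miR167 sequences had a negative change (median -0.49), against 6 of 9 over the 6 libraries (median -0.13).

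miR393 represses the TIR1/AFB auxin receptors. Its 2 tested sequences, gma-miR393k and osa-miR393b-5p, are the same stretch shifted by 1 base and can share molecules. gma-miR393k was at 321, 76.1 and 89.7 CPM in control and 91.0, 11.1 and 26.8 CPM under nitrogen excess. In both conditions the replicate 1 library, which belongs to the first naming series, was far above the others, and nitrogen-excess shoot 1 lay above controls 2 and 3. The log2 fold change was -1.86 ± 0.93 (adjusted p = 0.443) over 6 libraries and -1.62 ± 1.02 without the library labelled 3 (adjusted p = 0.743). gma-miR393k fell in the 5-library fit with the naming series as a term, at -2.30 ± 0.62 (adjusted p = 0.0049, with 0.0049 to 0.765 over the 16 alternatives). The shifted osa-miR393b-5p stood at -1.58 ± 0.83 over 6 libraries, -1.35 ± 0.79 without that library and -1.61 ± 0.60 in that fit (adjusted p = 0.0668), and was not called.

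Of the miRNAs that time the change from juvenile to adult growth and flowering, a miR172 and a miR5200 sequence were lower. miR172 represses AP2-like factors that delay flowering, and miR156 acts earlier by repressing SPL factors. ata-miR172b-3p was at 179, 45 and 36.2 CPM in control shoot and 35.5, 7.92 and 16.1 CPM in nitrogen-excess shoot. The groups did not overlap by a narrow margin, since nitrogen-excess shoot 1 lay just under control shoot 3. The lowest libraries held few reads, with raw counts of 112, 5 and 3 in the 3 nitrogen-excess libraries. ata-miR172b-3p stood at -2.06 ± 0.91 (adjusted p = 0.394) over 6 libraries and at -1.93 ± 0.98 without the library labelled 3 (adjusted p = 0.629). It fell in the 5-library fit with the naming series as a term, at -2.33 ± 0.67 (adjusted p = 0.00911, with 0.00911 to 0.755 over the 16 alternatives). With the library labelled 3 left out, it moved by over 2 log2 units between the naming series in both conditions. The same held for ata-miR5200-5p in the opposite direction. For ata-miR172b-3p the values within the series were -2.32 and -1.66, the second with the library labelled 3 included.
miR5200, known from Brachypodium, targets FT genes, whose product promotes flowering. The sequence described here is named for the 5p arm, and whether that strand acts on FT genes was not tested. ata-miR5200-5p was at 76.4, 599 and 517 CPM in control and 19.7, 101 and 85.6 CPM under nitrogen excess. Control shoot 1 was low and lay below 2 of the nitrogen-excess libraries, yet within each naming series the nitrogen-excess libraries were below the controls. The log2 ratio was -1.93 in the first series and the log2 fold change -2.32 in the second. ata-miR5200-5p had the lowest log2 fold change of all 148 sequences, -2.55 ± 0.99 (adjusted p = 0.256). It stood at -2.74 ± 1.11 without the library labelled 3 (adjusted p = 0.53) and fell in the 5-library fit, at -2.24 ± 0.58 (adjusted p = 0.00326, with 0.00326 to 0.755 over the 16 alternatives). In the authors' deposited table (DESeq2), 6 sequences had an adjusted p below 0.05, and 0 of them were lower. There ata-miR5200-5p had the smallest adjusted p among sequences with a negative change, 0.0717. Its raw counts were 92, 811 and 715 in control and 62, 64 and 16 under nitrogen excess. The other tested miR5200 sequence, bdi-miR5200c, was not lower without the library labelled 3, at 0.43 ± 0.89. Its raw counts were 12, 17 and 20 in control and 20, 18 and 0 under nitrogen excess.

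miR156 sequences leaned the same way. Of 13 tested, 10 had a negative log2 fold change, with a median of -0.78, and the count was the same without the library labelled nitrogen-excess 3 (median -0.63). By named arm, all 3 5p sequences were negative (median -1.11), whereas the 3p sequences divided into 3 positive and 3 negative (median -0.16). Without that library these counts were the same (medians -0.92 and -0.22). The seed of osa-miR156l-5p is held by 7 tested sequences, itself included, so these are not separate readings. osa-miR156l-5p was at 269.9, 87.1 and 89.7 CPM in control and 83.4, 72.9 and 48.2 CPM under nitrogen excess. All 3 nitrogen-excess libraries were below the controls, with nitrogen-excess shoot 1 close under control shoot 2. The log2 fold change was -1.11 ± 0.80 (adjusted p = 0.583), or -0.92 ± 0.73 without the library labelled 3. Its log2 ratio within the first naming series was -1.69, and the change within the second was -0.24, in the fit with a median of 0.44. osa-miR156l-5p is also one of the shoot-high sequences. So are the most abundant of the family, gma-miR156q at 2564, 729.6 and 667 CPM in control and 771, 748 and 385 CPM under nitrogen excess, and ata-miR156c-3p at 862, 2553 and 1862 and 1033, 803 and 797 CPM, both with overlapping groups. Their changes went from -1.05 to -0.79 and from -1.0 to -0.94 without the library labelled 3. osa-miR156l-5p and bdi-miR160e-5p, above, were singled out after their values were seen, because their groups did not overlap.

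**Figure D2:**
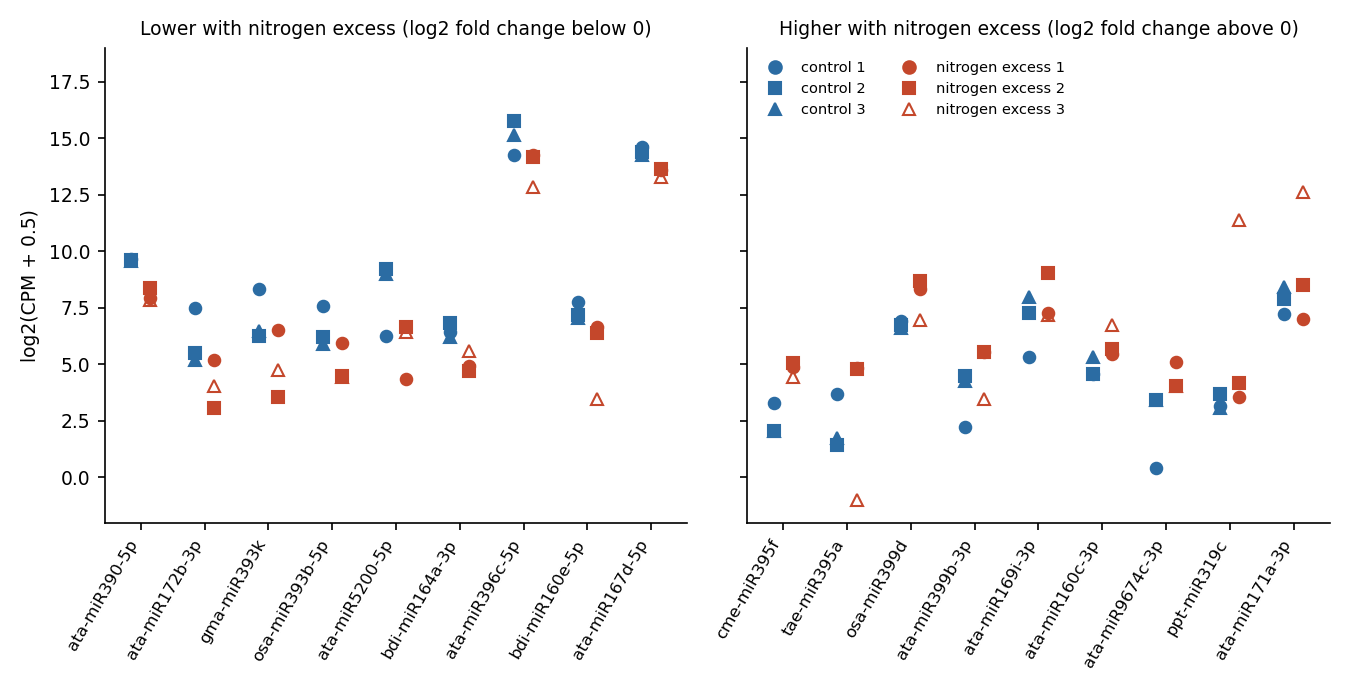
Level of 18 sequences in each of the 6 shoot libraries, as log2(CPM + 0.5), with control in blue, nitrogen excess in red and the library labelled nitrogen-excess 3 as open triangles. The shoot-high ata-miR390-5p shows tight controls above all nitrogen-excess libraries, whereas the root-high ppt-miR319c and ata-miR171a-3p are high in the open triangle alone.

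Leaf growth and patterning families split in direction. miR396 represses growth-regulating factors (GRFs), which drive cell division in leaves. ata-miR396c-5p, the most abundant miR396 sequence, was at 19572, 56338 and 35899 CPM in control and 19354, 18309.9 and 7357 CPM under nitrogen excess. Control shoot 1 and nitrogen-excess shoots 1 and 2 were nearly level, while controls 2 and 3 were well above. The log2 fold change was -1.31 ± 0.72 (adjusted p = 0.443), the log2 ratio within the first naming series was -0.02, and the change within the second was -1.53. ata-miR396c-5p is one of the shoot-high sequences and was lowest in the library labelled nitrogen-excess 3, and without that library it stood at -0.98. The 3p sequence of the same name, ata-miR396c-3p, also shoot-high, went the same way, at -1.21 and at -0.75 without that library. Its raw counts were 376, 1353 and 1946 in control and 654, 551 and 17 under nitrogen excess. Another 3p sequence, ata-miR396e-3p, stood at 1.73 ± 0.94, and at 0.05 without that library. In that library ata-miR396e-3p was at 712 CPM, against at most 118 CPM elsewhere.

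miR164 represses NAC factors of the CUC type that set organ boundaries. bdi-miR164a-3p, which comes from the arm opposite the one known for those targets, was at 84.7, 114 and 73.8 CPM in control and 30.1, 25.3 and 48.2 CPM under nitrogen excess. The groups did not overlap, and the library labelled 3 was the highest of its group. The log2 fold change was -1.43 ± 0.78 (adjusted p = 0.443) and -1.70 ± 0.65 without that library (adjusted p = 0.48), and was not called. The log2 ratio within the first naming series was -1.48 and the change within the second was -1.21. From the other arm, ata-miR164a-5p stood at -0.41 ± 1.04 without the library labelled 3. Its raw counts were 141, 35 and 32 in control and 228, 5 and 3 under nitrogen excess. The miR164 sum overlapped between groups, at 157, 133 and 81.4 CPM in control and 140, 63.0 and 133 CPM under nitrogen excess.
miR166, which represses HD-ZIP III factors of leaf polarity, gave 19 tested sequences. Without the library labelled nitrogen-excess 3, all 5 of its 5p sequences had a negative change (median -0.83), against 3 of 5 with it, and the 3p sequences divided into 4 positive and 6 negative. ata-miR166b-5p was at 141, 338 and 274 CPM in control and 52.9, 152 and 112 CPM under nitrogen excess, a log2 fold change of -1.25 ± 0.82 (adjusted p = 0.562), or -1.30 without the library labelled 3. Its groups overlapped, as nitrogen-excess shoot 2 lay above control shoot 1. The rare osa-miR166i-3p, at 9.97, 11.1 and 22.4 CPM in control and 1.90, 4.75 and 10.7 CPM under nitrogen excess, stood at -1.74 ± 0.98, and at -2.26 without that library, from raw counts of at most 31 in a library. The shoot-high bdi-miR166h-3p stood at -0.53 with the library labelled 3, where it was at 5441 CPM against at least 24196 CPM elsewhere, and at -0.06 without it.

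Single sequences of a further pair of developmental families were high in 1 library, which their family sums were not. miR319 represses TCP factors of leaf margins and miR171 represses GRAS factors of the HAM type. ppt-miR319c was at 8.30, 12.6 and 7.96 CPM in control and 11.4, 17.4 and 2702 CPM under nitrogen excess, and its shifted neighbour tae-miR319 at 29.1, 28.1 and 17.4 and 20.6, 57.0 and 2413 CPM. ata-miR171a-3p was at 151, 233 and 343 CPM in control and 129, 367 and 6351 CPM under nitrogen excess. In each of these the library labelled nitrogen-excess 3 was far above the rest, and the other libraries of the 2 groups overlapped. All 3 are root-high sequences. The log2 fold changes of 6.54, 5.05 and 3.23 became 0.56, 0.63 and 0.03 without it. The main shoot form, bdi-miR319b-3p, shares its seed with tae-miR319 but was at 19621, 16205 and 14804 CPM in control and 6596, 25368 and 10647 CPM under nitrogen excess, with overlapping groups, and went from -0.25 to -0.07. After TMM scaling of the family sums, miR319 and miR171 were highest in nitrogen-excess shoot 2, at 40039 and 7823 CPM against 16441 and 7216 CPM in the library labelled 3. As a share of all counts, miR319 was also highest in nitrogen-excess shoot 2 (2.12%). The miR171 share was highest in control shoot 2 (0.596%), with 0.414% in nitrogen-excess shoot 2 and 0.532% in the library labelled 3.

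The nutrient families outside copper leaned higher. miR395 represses ATP sulfurylases and a sulfate transporter and is known to be induced when sulfate is short. cme-miR395f was at 9.14, 3.69 and 3.62 CPM in control and 28.9, 33.3 and 21.4 CPM under nitrogen excess. All 3 nitrogen-excess libraries were above all controls, on raw counts of 11, 5 and 5 and 91, 21 and 4. Its log2 fold change was 2.36 ± 0.84 (adjusted p = 0.227), 2.5 ± 0.80 without the library labelled nitrogen-excess 3, and cme-miR395f rose in the 5-library fit with the naming series as a term, at 2.48 ± 0.75 (adjusted p = 0.0159, with 0.0159 to 0.755 over the 15 alternatives).
The near-identical tae-miR395a was at 12.5, 2.22 and 2.89 CPM in control and 28.5, 26.9 and 0 CPM under nitrogen excess. In the library labelled nitrogen-excess 3 it had 0 counts of 245176, which allows a share of up to 0.00122% by counting error alone, so its groups overlapped there and only there. tae-miR395a stood at 1.81 ± 0.99 over 6 libraries and 2.25 without that library, and rose in the 5-library fit, at 2.31 ± 0.77 (adjusted p = 0.035, with 0.035 to 0.959 over the 14 alternatives). Another member, gma-miR395h, was at 40.7, 4.43 and 14.5 CPM in control and 38.7, 60.2 and 0 CPM under nitrogen excess, with control shoot 1 inside the range of the other group, and went from 0.82 to 1.32 without that library.

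miR399 moves from shoot to root in phosphate shortage and represses PHO2, which limits phosphate uptake. osa-miR399d was at 121, 107 and 95.5 CPM in control and 319, 409 and 123 CPM under nitrogen excess. Nitrogen-excess shoots 1 and 2 were well above the controls, and the library labelled 3 was just above the highest control. osa-miR399d stood at 1.40 ± 0.81 (adjusted p = 0.474) over 6 libraries and 1.76 ± 0.59 without that library, and rose in the 5-library fit, at 1.76 ± 0.51 (adjusted p = 0.0109, with 0.0109 to 0.959 over the 16 alternatives). Within the first naming series its log2 ratio was 1.39, and within the second its change was 1.74. ata-miR399b-3p, which shares its seed, was at 4.15, 22.2 and 18.8 CPM in control and 45.7, 45.9 and 10.7 CPM under nitrogen excess, and stood at 1.24 ± 0.86 with overlapping groups, or 1.60 without the library labelled 3.
miR827 represses SPX-MFS phosphate transporters in cereals. bdi-miR827-5p was at 1066, 374 and 322 CPM in control and 829, 828 and 1396 CPM under nitrogen excess. The values of bdi-miR827-3p were 289.8, 178 and 142 and 163, 196 and 310.3 CPM. Both groups overlapped, with control shoot 1 above the first nitrogen-excess library for either arm. The 5p sequence went from 0.79 to 0.51 without the library labelled 3, and bdi-miR827-3p from 0.13 to -0.17.

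The families with known links to nitrogen supply gave no common direction. miR169 represses NF-YA subunits of CCAAT-binding factors and miR444, found in monocots, represses MADS-box genes of nitrate signalling. Of 8 miR169 sequences, 7 had a positive change (median 0.69), and 5 without the library labelled nitrogen-excess 3 (median 0.43). By named arm, 5 of 5 3p sequences were positive (median 0.91), and 3 of 5 without that library (median 0.41). Of the 5p sequences, 1 of 2 was positive with that library (median 0.03) and without it (median -0.06). Whether the 3p strands act on NF-YA genes was not tested. ata-miR169i-3p was at 39.9, 152 and 252 CPM in control and 153, 524 and 144 CPM under nitrogen excess, with overlapping groups. In both conditions its replicate 1 library was below replicate 2, which belongs to the other naming series. ata-miR169i-3p stood at 0.89 ± 0.90 (adjusted p = 0.755) over 6 libraries and 1.19 ± 0.87 without the library labelled 3, and rose in the 5-library fit, at 1.62 ± 0.53 (adjusted p = 0.0308, with 0.0308 to 0.996 over the 16 alternatives). ata-miR169d-5p was at 55.6, 36.9 and 38.4 CPM in control and 93.2, 58.6 and 10.7 CPM under nitrogen excess, above all controls in the first 2 libraries and below them in the one labelled 3, and went from 0.37 to 0.81 without it.
osa-miR444b.1 was at 12792, 16528 and 13472 CPM in control and 6986, 5069 and 25034 CPM under nitrogen excess. Nitrogen-excess shoots 1 and 2 were below all controls and the library labelled 3 was above them. Its log2 fold change of -0.21 ± 0.77 moved to -1.24 ± 0.56 without that library (adjusted p = 0.555). bdi-miR444b was at 192, 131 and 108 CPM in control and 146, 63.4 and 765 CPM under nitrogen excess, highest in the same library, and went from 1.16 to -0.44. Without that library all 4 tested miR444 sequences were negative, against 3 with it.

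Grass and Triticeae families gave values in both directions. For hvu-miR6201 the controls held 417, 1599 and 1020.5 CPM and the nitrogen-excess libraries 202, 592 and 149.8 CPM, a log2 fold change of -1.68 ± 0.91 (adjusted p = 0.443) with overlapping groups. It stood at -1.35 ± 0.84 without the library labelled 3, and hvu-miR6201 is one of the shoot-high sequences. Control shoot 1 set bdi-miR1432 apart, at 10509, 1705 and 1984 CPM in control and 2631, 925 and 1717 CPM under nitrogen excess, a change of -1.43 ± 0.91, or -1.4 without the library labelled 3. Its log2 ratio was -2.0 within the first naming series and its change -0.31 within the second, or -0.74 relative to the median of that fit.
hvu-miR5051 turned on 1 library. It was at 823, 7815 and 5372 CPM in control and 348, 2105 and 9513 CPM under nitrogen excess, with both replicate 1 libraries lowest in their group. Its log2 fold change was -0.23 ± 1.04 with the library labelled nitrogen-excess 3 and -1.93 ± 1.10 without it. hvu-miR5049e, at 84.7, 243 and 187 CPM in control and 58.3, 52.3 and 305 CPM under nitrogen excess, moved in the same way, from -0.35 to -1.63. Neither was called in any of these fits.
On the higher side, ata-miR9674c-3p was at 0.83, 10.3 and 10.1 CPM in control and 33.6, 15.8 and 16.1 CPM under nitrogen excess, with no overlap, and stood at 1.66 ± 0.91 (adjusted p = 0.443), or 1.81 without the library labelled 3. Its raw counts were few, at 1, 14 and 14 in control and 106, 10 and 3 under nitrogen excess. ata-miR9674b-3p stood at 1.33 ± 0.96, with 0 counts in the library labelled nitrogen-excess 3 and overlapping groups, and at 1.75 without it.

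Of the 6 tested sequences that resemble ends of tRNA or rRNA, 5 had positive changes over 6 libraries, and those named here were led by the library labelled nitrogen-excess 3. bdi-miR5054 and ath-miR8175 both end in the letters gcgcca, and mature tRNAs carry an added CCA at that end. bdi-miR5054 was at 1115, 671 and 825 CPM in control and 1778, 969 and 14574 CPM under nitrogen excess. ath-miR8175 was at 959, 249.6 and 303 CPM in control and 1367, 157 and 6276 CPM under nitrogen excess. The levels of gma-miR6300, itself a root-high sequence, were 6080.1, 1402 and 2019 CPM in control and 3469.8, 8527 and 29304 CPM under nitrogen excess. In all 3 the groups overlapped with and without the library labelled 3, and their changes of 2.73, 2.37 and 2.12 became 0.67, 0.61 and 0.93. ppt-miR894 and tae-miR9779 moved likewise, from 1.67 to 0.41 and from 1.91 to -0.29, the latter in no list.

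**Figure D3:**
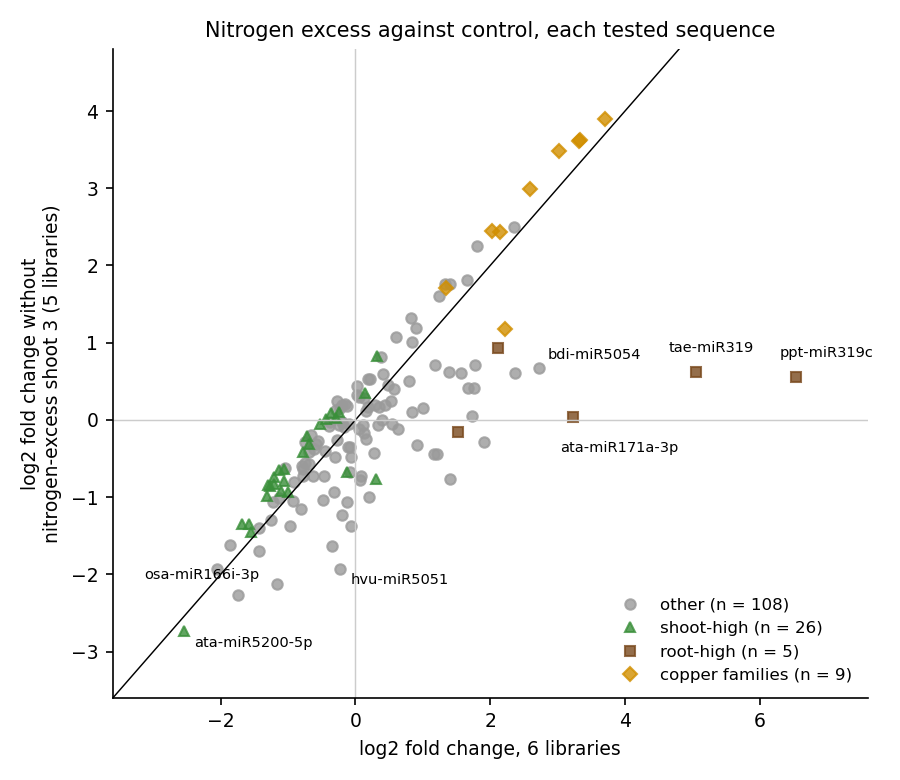
Log2 fold change of each of the 148 tested sequences over 6 libraries (horizontal axis) and without the library labelled nitrogen-excess 3 (vertical axis), with the line of equal values. The root-high ppt-miR319c lies far to the right of the line, going from 6.54 to 0.56, while copper families lie along or above it except hvu-miR397b-3p.

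Leaving out the library labelled nitrogen-excess 3 turned the sign of 29 of the 148 changes, and that library was the highest of the 6 for 48 of them. The 5 tested root-high sequences had a median log2 fold change of 3.23 with it and 0.56 without it. The 27 shoot-high sequences had a median of -1.0 with it and -0.68 without it, and 4 of the 27 were positive with it and 7 without it. Several of the lower sequences above (ata-miR390-5p, osa-miR393b-5p, ata-miR5200-5p, ata-miR396c-5p, bdi-miR160e-5p, osa-miR156l-5p and hvu-miR6201) are shoot-high, and all stayed negative without that library. A lower share of shoot tissue and a lower level per cell cannot be told apart in these bulk samples. Between naming series, with the library labelled nitrogen-excess 3 left out, 97 of 148 sequences differed with the same sign in both conditions, and 10 by over 2 log2 units.

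Summed over their members, 5 of 56 families were called higher (8.93%; edgeR) and 0 lower, with 13 at an unadjusted p below 0.05, while DESeq2 called 4. Of the 5, 4 were copper families and the other was miR5054. On the TMM scale of the family sums, groups did not overlap for 10 families that were higher (17.9%) and 1 that was lower (1.79%), which was miR390. That scale put the miR166 sum at 1108530 and 1031480 CPM in nitrogen-excess shoots 2 and 3, above the total it refers to. The overlap of family groups was not recounted with other scalings, so the split between higher and lower depends on this one. Leaving out control shoot 1 gave 10 called families, leaving out any other library gave 0, and so did scaling by DESeq2 size factors or by library totals. The median family stood at 0.62 on the log2 scale, at 0.00 with DESeq2 size factors and at -0.21 with library totals, so family changes are given relative to it except where an adjusted p is printed, which belongs to the change relative to 0. miR390 was at 610.3, 680.1 and 603 CPM in control and 302, 502 and 238 CPM under nitrogen excess on the family scale, -1.48 relative to the median and -1.28 without the library labelled nitrogen-excess 3. On the same relative scale miR5200 stood at -2.23 and -2.36, miR393 at -1.60 and -1.12, and miR396 at -1.20 and -0.80.
The miR395 sum was 51.8, 12.8 and 18.1 CPM in control and 137, 235 and 38.7 CPM under nitrogen excess, and the miR399 sum 95.4, 113 and 89.3 and 452, 710.1 and 138 CPM. On the same TMM scale the groups of miR399 did not overlap, whereas for miR395 the library labelled 3 lay below control shoot 1. In the 5-library fit with the naming series as a term, 6 of 59 families were called higher (10.2%), the 4 copper families with miR395 (log2 fold change relative to 0 of 2.39 ± 0.63, adjusted p = 0.00475, with 0.00475 to 0.589 over the 16 alternatives) and miR399 (2.11 ± 0.60, adjusted p = 0.0089, with 0.0089 to 0.538 over the 16 alternatives). miR5054, at 3.18 relative to 0 over 6 libraries (adjusted p = 0.0365), stood at 1.13 once the library labelled nitrogen-excess 3 was left out (adjusted p = 0.65), and its level in that library was 15074 CPM. The sums of miR6201, miR1432 and miR5056 stood at -1.55, -1.39 and -1.23 relative to the median and were not called. The miR6300 sum stood at 2.06 and at 1.07 without the library labelled 3. The miR444 sum was 10111, 14603 and 10758 CPM in control and 9079, 8019 and 27088 CPM under nitrogen excess, and stood at -0.30 relative to the median, or -0.98 without the library labelled 3. Its sign relative to 0 depended on the scaling, as did that of miR5051, so no direction is given for either sum. For miR5051 those values were -0.40 and -1.95.

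Among single sequences, 5p members leaned lower and 3p members higher over 6 libraries. Without the library labelled nitrogen-excess 3 the 5p lean stayed and the 3p sequences were nearly even. Of 41 tested 5p sequences, 30 had a negative change and 11 a positive one (median -0.62), whereas of 58 tested 3p sequences 19 were negative and 39 positive (median 0.40). Over all 148 sequences, 76 were negative and 72 positive, with a median of -0.07. Without the library labelled nitrogen-excess 3, the 5p sequences stood at 30 negative and 12 positive (median -0.56) and the 3p sequences at 26 and 32 (median 0.07). Of the 8 sequences that were lower without overlap, 6 were 5p and 2 were 3p, and of the 12 that were higher, 3 were 5p, 8 were 3p and 1 had no stated arm. These are counts over sequences that share families and precursors, and are a description. Root-high and shoot-high sequences are among them, and their part in the split was not tested.

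Within families, the ratio of 3p to 5p counts was tested in 15 families, and edgeR called 0 (1 at an unadjusted p below 0.05), limma on log ratios also 0, and limma with the replicate number as a block 1, miR408. The share on the 3p arm was higher without overlap in 1 family (6.67%), miR166, and lower in 2 (13.3%), miR408 and miR827. In miR827, 3p reads made up 21.4, 32.2 and 30.6% of the arm counts in control and 16.5, 19.2 and 18.2% under nitrogen excess, a log2 change of the ratio of -0.82 ± 0.51 (adjusted p = 0.55), or -0.83 without the library labelled 3. In miR160 the share was 6.16, 13.6 and 20.0% in control and 16.8, 25.3 and 51.1% under nitrogen excess (1.53 ± 0.90, adjusted p = 0.55), and 0.91 without the library labelled nitrogen-excess 3. The groups of miR160 overlapped, with control shoot 3 above nitrogen-excess shoot 1. miR166 was nearly all 3p in every library, at 99.68, 99.61 and 99.68% in control and 99.77, 99.83 and 99.70% under nitrogen excess (0.62 ± 0.38, adjusted p = 0.55).
In miR169 the 3p share was 61.4, 71.3 and 76.4% in control and 71.6, 84.9 and 87.1% under nitrogen excess (0.96 ± 0.64), with overlap. miR171 turned on the library labelled nitrogen-excess 3: its 3p share was 36.2, 8.74 and 12% in control and 39.9, 11.6 and 93.4% under nitrogen excess, and the log2 change of 2.21 became 0.63 without it. In miR408, 92.9, 69.9 and 82.8% of the arm counts in control and 61.1, 32.3 and 36.5% under nitrogen excess were 3p (-2.78 ± 0.90, adjusted p = 0.306, with 0.0272 to 0.771 over the 9 alternatives). The 5p arm of miR408, the minor one in every control, held most of the arm counts in the nitrogen-excess libraries 2 and 3.

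**Figure D4:**
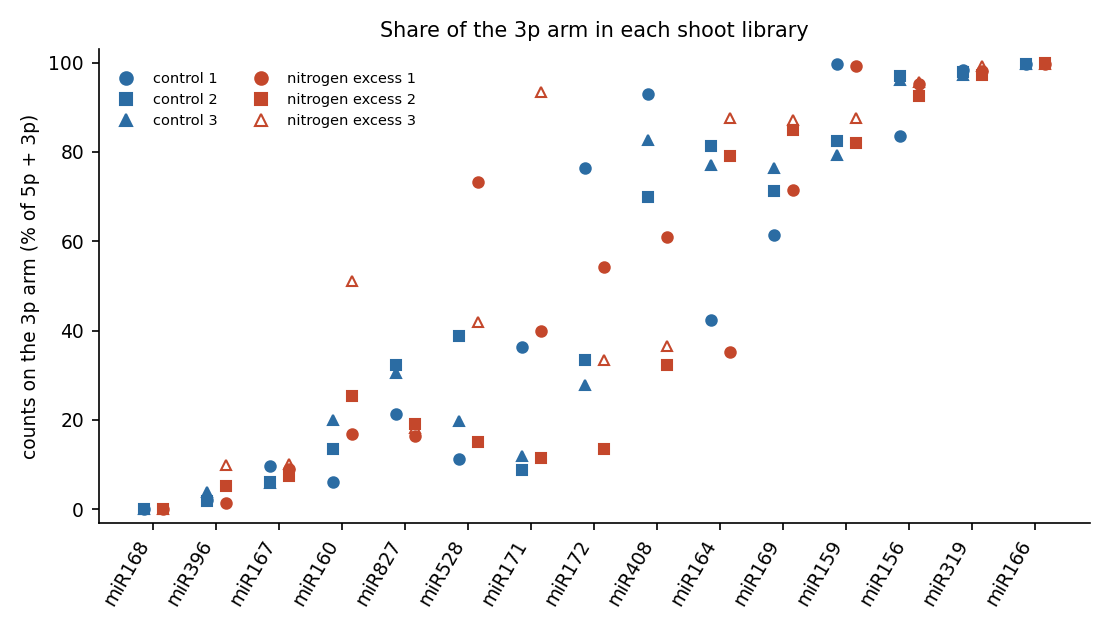
Percent of arm-named counts on the 3p arm in each shoot library for the 15 families with both arms counted, control in blue, nitrogen excess in red, and the library labelled nitrogen-excess 3 as open triangles. Nitrogen-excess points lie below control points in miR408 and miR827, and within miR171 the open triangle stands alone at 93.4%.

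Read by list, 12 of 15 phase-change sequences were negative (median -0.78) and 10 of 15 auxin sequences (median -0.15), beside 76 of 148 over all sequences (median -0.07). Without the library labelled nitrogen-excess 3 the phase-change median was -0.63, with 12 of 15 negative, and the auxin median -0.53, with 13 of 16 negative, beside 89 of 154 over all sequences (median -0.12). All 3 sulfate sequences (median 1.81, and 2.25 without that library) and all 4 phosphate sequences (median 1.02, and 1.05 with 3 of 4 positive) were positive. The nitrogen-status list stood at 8 of 12 positive (median 0.43) and at 5 of 12 without that library (median -0.34). Patterning had 16 of 27 negative (median -0.36), and 20 of 27 without that library (median -0.25). Growth regulators divided evenly, 9 positive and 9 negative (median 0.00), and stood at 9 and 10 without that library (median -0.03). The grass and Triticeae list had 9 of each sign (median -0.10), and 8 positive and 13 negative without that library (median -0.27). The small RNA machinery list, miR168 against ARGONAUTE1, had 3 of 4 negative (median -0.37), and 2 of 4 without that library. The tasiRNA and NLR list had 4 of 4 negative (median -0.35), and 2 of 4 without it. Sequences resembling tRNA or rRNA had 5 of 6 positive (median 1.89) and 6 of 6 without it, at a median of 0.51.

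**Figure D5:**
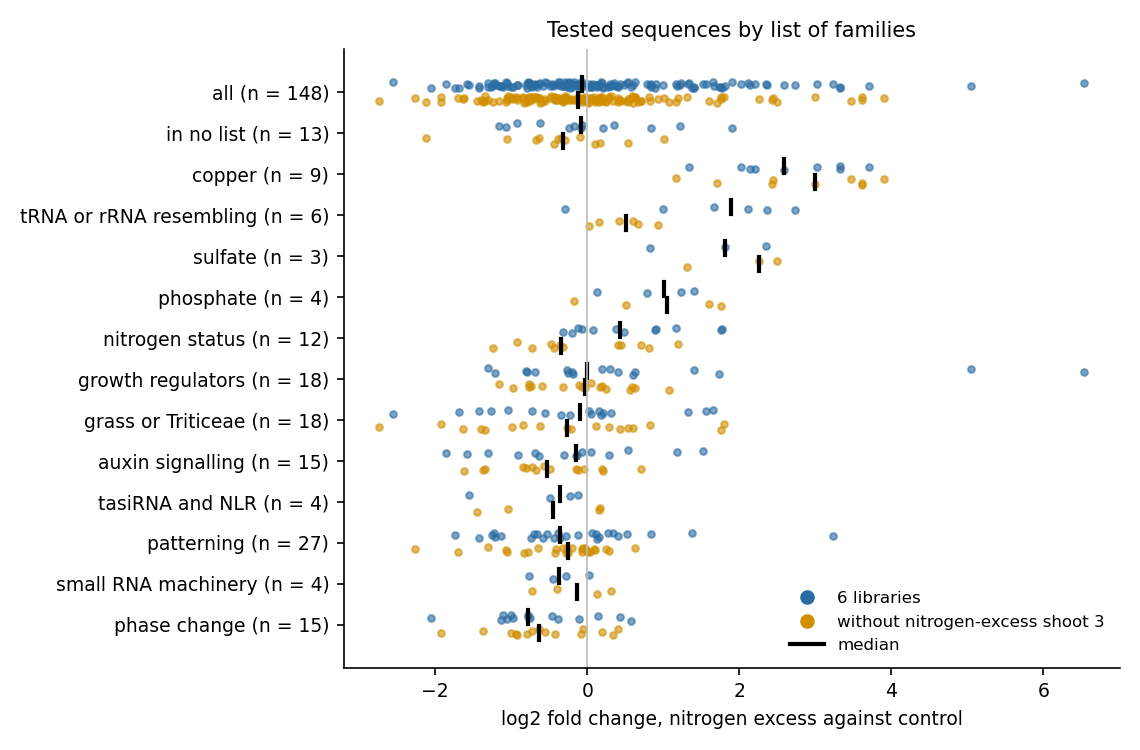
Log2 fold change of the tested sequences by list of families, over 6 libraries (blue) and without the library labelled nitrogen-excess 3 (orange), 1 point per sequence with the median as a black bar. The orange points are the 148 sequences of the 6-library fit, and the orange-row medians include up to 154 sequences. The phase-change median is below 0 and the phosphate and sulfate medians above 0 in both, and the tRNA or rRNA median moves from 1.89 to 0.51.

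None of the 5 abundant sequences given here as shares separated the groups. hvu-miR166b, the main miR166 sequence, made up 48.0, 57.5 and 51.2% of counts in control and 43.6, 54.7 and 75.0% under nitrogen excess, and was highest in the library labelled 3. hvu-miR159b, which represses GAMYB factors, made up 15, 2.00 and 2.18% in control and 14.0, 4.64 and 0.679% under nitrogen excess. Both replicate 1 libraries were high in hvu-miR159b whatever the treatment. hvu-miR168-5p made up 15.9, 9.32 and 17.5% in control and 18.9, 16.7 and 5.95% under nitrogen excess, with overlapping groups. Its other arm, hvu-miR168-3p, held 190.2, 6.65 and 13.0 CPM in control and 77.7, 25.3 and 48.2 CPM under nitrogen excess, with control shoot 1 far above the rest. The share of hvu-miR5048b was 3.37, 3.48 and 3.90% in control and 2.77, 4.62 and 1.31% under nitrogen excess, and that of tae-miR9662b-3p 1.06, 2.76 and 3.43% and 1.63, 4.27 and 0.872%, again with overlap. The near-identical tae-miR9662a-3p stood at 0.05 ± 0.74.

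Sequences of 22 nt, a length known to trigger secondary small RNAs from targets, held 8.29, 8.26 and 8.04% of counts in control and 6.77, 6.72 and 3.95% under nitrogen excess. All nitrogen-excess libraries were below all controls, and the exact permutation test, two-sided, gave p = 0.1, the smallest that 3 against 3 libraries allow (adjusted p = 0.4 over the 8 shares tested). Among the 22 nt sequences, ata-miR167d-5p made up 2.31, 2.41 and 2.18% of counts in control and 1.74, 1.03 and 0.772% under nitrogen excess, so its groups did not overlap either. bdi-miR1432 made up 0.971, 0.19 and 0.222% in control and 0.369, 0.0749 and 0.131% under nitrogen excess, with overlap through nitrogen-excess shoot 1. Without the library labelled nitrogen-excess 3 the 22 nt difference was -1.45 percentage points, against -2.38 with it.
Sequences beginning with U, the base preferred by ARGONAUTE1, held 97.6, 97.1 and 96.9% in control and 96.0, 96.6 and 93.5% under nitrogen excess, again without overlap (two-sided exact permutation p = 0.1, adjusted p = 0.4). The difference of -1.90 percentage points became -0.96 without the library labelled 3. The 20 nt share was 0.521, 0.69 and 0.79% in control and 1.07, 0.623 and 2.85% under nitrogen excess, with overlap, a difference of 0.85 percentage points with the library labelled 3 and 0.18 without it. The largest contributor was ppt-miR894, at 0.261, 0.508 and 0.577% and 0.719, 0.485 and 2.20%. The 21 nt and 24 nt shares overlapped between groups, at 91.1, 91.8 and 89.7% and 0.267, 0.0486 and 0.0281% under nitrogen excess.

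The copper families, which repress laccases, plantacyanins and superoxide dismutases and are known to be induced when copper is short, made up 4 of the 5 called family sums. miR528 was at 43.6, 98.2 and 78.6 CPM in control and 1058, 943 and 338 CPM under nitrogen excess, with the library labelled 3 lowest of its group, and one of its sequences, ata-miR528-5p, is shoot-high. All 9 tested copper sequences were positive with and without that library, bdi-miR397b-5p at 2.58 ± 0.92 and 2.99 ± 0.73 and tae-miR408 at 1.34 ± 0.90 and 1.71 ± 0.80. The 9 include ata-miR528-3p and OLAs_528, the same stretch shifted by a base. Their raw counts were equal in every library but nitrogen-excess shoot 1, with 1150 and 1147. The miR528 sum may therefore hold the same reads more than once. Relative to the family median, miR398, miR528, miR397 and miR408 stood at 3.04, 2.79, 2.68 and 2.14 over 6 libraries and at 3.83, 3.25, 3.24 and 2.70 without that library, where edgeR called 0 of 59 families (7 at an unadjusted p below 0.05).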

How the data were processed

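The TruSeq small RNA kit was applied to total RNA, per the labels' protocols, from 3 control and 3 nitrogen-excess shoot samples that the labels call biological replicates. The deposited shoot table gives whole-number counts per listed sequence, which were used here. It also holds a signal column per library, the authors' counts divided by 1 factor per sample, and the authors' log2 fold changes with p-values and adjusted p-values. The submitters' processing notes name DESeq2 without a version. The aligner, trimming, mismatches allowed and the miRNA catalogue are not stated there or in the table, nor is it stated whether a read could count for near-identical sequences: 55 of the 148 tested sequences have a tested neighbour within 1 substitution or a shift of up to 2 bases. Family and arm were read from the sequence names.

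Counts were filtered with filterByExpr (at least 10 counts, total at least 15), scaled by TMM and tested with edgeR 4.0.16 (quasi-likelihood) in R 4.3.3, with limma 3.58.1 and DESeq2 1.42.0 as alternatives. Shares were compared by an exact permutation test in scipy 1.17.1. Family sums and the ratio of 3p to 5p counts (at least 10 counts per arm in 3 libraries) had fits of their own. Root-high and shoot-high sequences differed by at least 4-fold, at 50.0 or more counts per 1000000, in replicates 1 and 2. The steps were run on simulated counts with a smaller spread between replicates than these data show, no naming series and no library of another tissue. That run checks the code and cannot give error rates for these data. Totals ran from 245176 to 2246495 counts, and the edgeR estimate of the biological coefficient of variation was 0.724 over 6 libraries and 0.637 without the library labelled nitrogen-excess shoot 3.

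Named sequences were the 10 with the smallest p in each direction, with and without the library labelled nitrogen-excess shoot 3, at most 2 per family and copper families aside, the 2 most abundant of each list and the 10 most abundant of all, families the 6 with the smallest p in each direction, and arm ratios the 6 with the smallest p. Members, lists and rules were chosen with earlier results of these data known. Root libraries were used only to choose and place the tissue markers.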

Additional observations from a re-analysis of the deposited data

How the results depend on the processing

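Against 0 sequences called over 6 libraries, 8 were called with no filter, 8 by DESeq2, 1 by limma-voom and 13 in the 5-library fit with the naming series as a term. Leaving out 1 library gave 0 to 4 calls, the highest without nitrogen-excess shoot 1. Against 5 families called, DESeq2 size factors gave 0, equal totals 0, a filter of at least 20 counts in 3 libraries 1, the naming series as a term over 6 libraries 11 and the second naming series alone 0. Leaving out 1 library gave 0 to 10 families. The replicate number as a block gave 3 sequences and 6 families, and 1 arm ratio (miR408, adjusted p = 0.0272) in limma. Same-numbered libraries had deviations that correlated at 0.496, 0.05 and 0.05, so the numbers were not taken to pair the samples.

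The sign turned for ath-miR8175 (-0.21 in the 5-library fit), for tae-miR9779 (-0.31 there, and -0.29 without nitrogen-excess shoot 3) and for osa-miR444b.1 (0.10 in the second naming series alone, and 0.16 without nitrogen-excess shoot 2). With 1 library left out, 6 sequences spanned 0: tae-miR9779 from -0.29 to 2.35, osa-miR444b.1 from -1.24 to 0.16, ata-miR9674b-3p from -0.14 to 1.91, ata-miR169d-5p from -0.24 to 0.81, hvu-miR5049e from -1.63 to 0.045, and hvu-miR5051 from -1.93 to 0.20. The miR1432 sum spanned -1.86 to 0.42. The miR444 sum turned under DESeq2 size factors (-0.12), equal totals (-0.43), no filter (-0.26), DESeq2 (-0.12), the second series alone (-0.093) and the 5-library fit (-0.88), and spanned -0.80 to 0.31 with 1 library left out. The miR5051 sum turned under the same settings (-0.23, -0.71, -0.61, -0.23, -0.31 and -1.12), limma-voom (-0.065), the replicate block (-0.15) and the naming series term (-0.012), and spanned -1.77 to 0.13 with 1 library left out. The 21 nt difference of 0.37 percentage points was -5.02 without the most abundant sequence and ran from -0.095 to 0.94 with 1 library left out, and the 5′ A difference of 0.14 ran from -0.15 to 0.34. The cause was not tested in any of these. Sequences with fewer than about 10 counts in a library, frequent in the library labelled nitrogen-excess shoot 3, have values that counting error alone can move.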
